A study of Mus musculus with 4 samples.

Results

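The 9 genes described here encode transcription factors with known roles in lymphatic endothelium: Prox1, Sox18, Nr2f2, Foxc1, Foxc2, Gata2, Nfatc1, Tbx1 and Hhex. They were taken by name from the 27040 gene identifiers that all 4 libraries list, whatever their level, and all 9 held UMIs (unique molecular identifiers, each standing for 1 captured RNA molecule). The study profiled single cells of mouse Achilles tendon with the 10x Single Cell 3' v3 assay. Cells of 5 tendons were pooled in each group. The Prox1 eGFP day 0 library has the treatment label "No treatment" and is taken here as the untreated group. The Prox1 eGFP day 7 library, the Prox1 eGFP day 21 library and the Vegfc CRE day 7 library have the treatment label B/T, which the labels do not expand. The treatment protocol field of the day 0 library also reads B/T, in conflict with its treatment label, and the label was used. Prox1 eGFP is by its name a green fluorescent reporter of Prox1. Which cells express the CRE, and the strain, age and sex of the mice, are not given in the sources used here. The extraction text describes a sort for Prox1-expressing cells in all 4 libraries, whereas the cell type field reads unsorted. Prox1 levels below are therefore levels among cells that may have been chosen for Prox1.

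Lymphatic endothelial cells arise mainly from venous endothelium. Sox18 and Nr2f2 (COUP-TFII) act upstream of Prox1, the factor that sets and holds lymphatic identity, and Hhex also acts upstream of Prox1. Foxc2, Foxc1, Gata2 and Nfatc1 take part in forming lymphatic valves and collecting vessels, and Tbx1 promotes expression of the lymphatic growth factor receptor gene Flt4. Several of the 9 also act in blood endothelium, and Prox1 is known in satellite cells, the stem cells of skeletal muscle.

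The genes lie on different chromosomes of the mm10 build. Prox1 is at chr1:190118035-190170714 on the minus strand, Sox18 at chr2:181669836-181671640 (minus), Nr2f2 at chr7:70351944-70366735 (minus) and Foxc1 at chr13:31806633-31812476 (plus). Foxc2 is at chr8:121116171-121118895 (plus), Gata2 at chr6:88193891-88207032 (plus), Tbx1 at chr16:18580979-18590671 (minus) and Hhex at chr19:37434810-37440731 (plus). Prox1 overlaps the antisense genes Prox1os and Gm28172, and whether the counting used strand is not given in the sources used here, so their UMIs cannot be told apart with certainty. The same holds for Nr2f2 and B130024G19Rik and for Nfatc1 and AC123818.1. Foxc2 overlaps Gm20388 on its own strand, and Gm20388 is listed in the Prox1 eGFP day 7 library and in no other, so Foxc2 counts of that library were made against a different gene list. A 3' assay does not report which start of a gene was used. Prox1, found in nearly every lymphatic and muscle progenitor cell below, has 2 annotated starts with promoter windows in RefSeq (GRCm38.p6), and these are shown because the counts sum over both. Each is the 250 bases before a start on the minus strand, 5′ to 3′, with the core letters of ETS-family sites (GGAA, or its reverse complement TTCC, so both strands are searched) in capitals.
Prox1, chr1:190169516-190169765: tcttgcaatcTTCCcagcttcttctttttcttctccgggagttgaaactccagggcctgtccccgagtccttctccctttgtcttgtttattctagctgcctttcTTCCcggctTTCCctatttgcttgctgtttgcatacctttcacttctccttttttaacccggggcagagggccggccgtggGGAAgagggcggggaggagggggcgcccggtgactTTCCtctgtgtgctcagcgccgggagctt
Prox1, chr1:190170828-190171077: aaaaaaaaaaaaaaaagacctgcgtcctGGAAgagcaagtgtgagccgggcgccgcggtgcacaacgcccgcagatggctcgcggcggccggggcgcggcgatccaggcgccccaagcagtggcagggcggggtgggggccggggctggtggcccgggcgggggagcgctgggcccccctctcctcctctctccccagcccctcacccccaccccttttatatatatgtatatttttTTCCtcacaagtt
The first window held 5 ETS cores and the second held 2. Of 32851 promoter windows of the same length, 93.4% held at least 1, with a median of 3. The E-box letters CANNTG, which read the same on both strands, occurred 0 times in the first Prox1 window and 2 times in the second, against 66.2% of all windows with at least 1. Neither Prox1 window held a GATA core (GATA or TATC, in 53.6% of windows) or a SOX core (ACAAT or ATTGT, in 27.7%). These matches describe letters and not binding.

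The libraries held 717 to 8711 barcodes and 6761289 to 92568978 UMIs. After filtering, 18823 cells remained (690 at day 0, 4871 at day 7, 6296 at day 21 and 6966 in Vegfc CRE), and any pair of libraries shared 1 to 10 barcodes. All cells were clustered together without the 9 genes, and clusters were named from markers that also left them out. The lymphatic endothelial-like class (Lyve1, Ccl21a, Mmrn1, Flt4 and other markers) held 3, 991, 1911 and 8 cells in the libraries in that order. The vascular endothelial-like class (Flt1, Emcn, Ackr1, Selp and others) held 7, 33, 120 and 679, and the muscle progenitor-like class (Pax7, Myf5, Myod1 and others) held 2, 3659, 3497 and 36. Each group is 1 library, so no value has a replicate, no test across libraries was possible, and day or line cannot be told apart from library. Levels are in CPM, the UMIs of a gene per 1000000 UMIs of a class in a library. All 95% intervals cover counting error only. Reverse transcription and capture differ between genes, so levels are compared between cells and not between genes.

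Prox1 was highest in lymphatic endothelial-like cells. In lymphatic endothelial-like cells the level of Prox1 was 1755 CPM at day 7 (1737 to 1772; 38878 UMIs) and 1618 at day 21 (1600 to 1637; 30069 UMIs). In muscle progenitor-like cells it was 1219 at day 7 (1207 to 1232) and 758 at day 21 (748 to 769). Vascular endothelial-like cells had 781 at day 7 (713 to 853; 492 UMIs), 158 at day 21 (137 to 182) and 3.09 in Vegfc CRE (2 to 4.56; 25 UMIs). On both days muscle progenitors came next, and these neighbours in the order did not overlap in their intervals. The vascular level of day 7 lay near the muscle progenitor level of day 21. At day 21 the next classes of at least 30 cells were monocyte-like cells (209.6), vascular cells and mature muscle-like cells (139), with overlapping intervals between neighbours.

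Nearly every lymphatic and muscle progenitor cell of the Prox1 eGFP libraries held Prox1 RNA. A UMI was found in 99.9% of lymphatic cells at day 7 and 99.5% at day 21, and in 99% and 96.4% of muscle progenitor cells. The median lymphatic cell held 32 Prox1 UMIs at day 7 and 13 at day 21, and the median muscle progenitor cell held 9 and 5. Median depth was 18889 and 8719 UMIs in lymphatic cells and 7745 and 6677 in muscle progenitors, so shares were also taken after thinning each cell to 2000 UMIs. Thinned shares with Prox1 were 91.8% and 92% in lymphatic cells, and 86.6% and 74.8% in muscle progenitors. Macrophage-like cells, which should lack the gene, held a Prox1 UMI in 9 of 59 cells at day 21 (15.3%, or 10.5% after thinning, at a median depth of 9553 UMIs). In Vegfc CRE 2 of 1514 macrophage-like cells (0.132%) and 0 of 1349 neutrophil-like cells held one, the latter allowing a share of up to 0.222%.

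**Figure D1:**
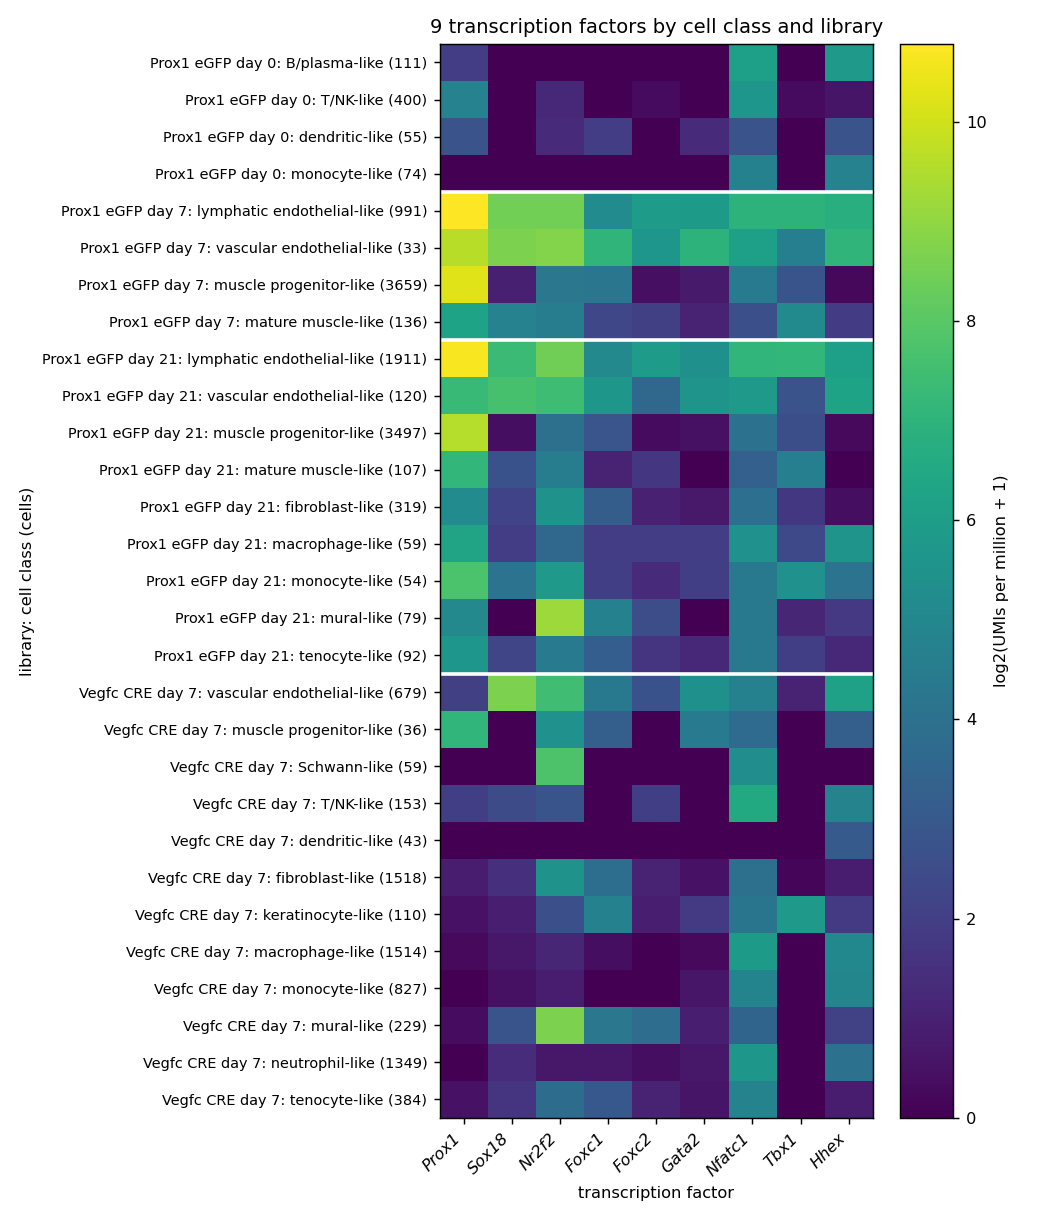
Heatmap of the level of each factor, as log2(CPM + 1), in the 29 combinations of cell class and library with at least 30 cells (cell number in brackets, white lines between libraries). Prox1 is brightest in lymphatic endothelial-like cells of the day 7 and day 21 Prox1 eGFP libraries, followed by muscle progenitor-like cells of both and vascular cells of day 7, whereas Sox18 is bright in both endothelial classes and Nr2f2 also in mural-like cells.

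The factors upstream of Prox1 were shared by both endothelial classes. Sox18, a SOX factor of early lymphatic specification, had 362 CPM in lymphatic cells at day 7 and 164 at day 21. In vascular endothelial-like cells it had 398 at day 7, 197 at day 21 and 396 in Vegfc CRE. The 2 endothelial classes overlapped at day 7, and vascular cells were above lymphatic cells at day 21. In muscle progenitors Sox18 was at 0.945 and 0.311 CPM (30 and 8 UMIs), so it separated the endothelial classes from the muscle class and not from each other.

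Nr2f2, a nuclear receptor of venous and lymphatic identity, had 356 and 347 CPM in lymphatic cells at day 7 and day 21. Vascular endothelial-like cells had 438 at day 7, 172 at day 21 and 177 in Vegfc CRE. Mural-like cells, the contractile cells around vessels, had 586 at day 21, above lymphatic cells, and 403 in Vegfc CRE, the highest class of that library. Muscle progenitors held 18.5 and 14.9. Hhex, a homeobox factor of endothelial and blood precursors, had 106 and 67.5 in lymphatic cells, 132 and 75 in vascular cells of the same libraries, and 71.1 in Vegfc CRE. The Hhex intervals of the 2 endothelial classes overlapped on both days, and muscle progenitors held 6 and 5 Hhex UMIs in all. Hhex was not confined to endothelial classes. Macrophage-like cells of day 21 had 46.9, overlapping lymphatic cells, and B/plasma-like cells of day 0 had 56.1.

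Of the valve and collecting-vessel factors, Nfatc1 and Foxc2 were higher in lymphatic cells at day 21, whereas Foxc1 and Gata2 were not. Foxc2, a forkhead factor required for lymphatic valves, had 59.6 and 59.5 CPM in lymphatic cells at day 7 and day 21. Vascular cells had 49.2 at day 7 (31 UMIs), 11.5 at day 21 (14 UMIs) and 5.56 in Vegfc CRE. Nfatc1, a calcineurin-responsive factor of valve formation, had 125 and 134 in lymphatic cells against 66.6, 53.6 and 25.6 in the 3 vascular groups. Foxc2 overlapped between the endothelial classes at day 7, and Nfatc1 did not overlap on either day. The day 7 log2 ratio of lymphatic to vascular cells for Nfatc1 (0.90) turned to -0.28 when each library was clustered alone. Foxc1, the close relative of Foxc2, had 36.1 and 32.5 in lymphatic cells against 132, 51.9 and 19.8 in vascular cells. Gata2, a zinc-finger factor of endothelial and blood cells, had 57.2 and 41.4 against 124, 47 and 41.1. Vascular cells therefore exceeded lymphatic cells in Foxc1 on both days, and in Gata2 at day 7 but with overlapping intervals at day 21. In muscle progenitors Foxc1 had 17.7 and 6.07 and Nfatc1 20.6 and 15.7, whereas Gata2 (22 and 10 UMIs) and Foxc2 (11 and 6 UMIs) were close to 0.

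Tbx1, a T-box factor of pharyngeal and lymphatic development, was highest in lymphatic cells, at 124 CPM at day 7 and 139 at day 21. Vascular cells had 23.8 at day 7 (15 UMIs), 5.77 at day 21 (7 UMIs) and 1.11 in Vegfc CRE (9 UMIs). Muscle progenitors had 5.98 and 4.94. Mature muscle-like cells had 33.3 at day 7, where 45 of 136 cells held a UMI, and that level overlapped the vascular one.

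The first comparison set lymphatic against vascular endothelial-like cells within a library, where both share tendons and handling. At day 21 Prox1 was 10.2-fold higher in lymphatic cells (log2 ratio 3.35), Tbx1 24.1-fold, Foxc2 5.16-fold, Nfatc1 2.51-fold and Nr2f2 2.01-fold. These are 5 of 9 factors at least 2-fold higher, where 11% of all genes were. None of the 9 was 2-fold lower, against 12.7% of all genes, and the median log2 ratio was 1.01 for the factors and 0.02 for all genes. With the vascular class restricted to its cluster 7 the count was 3. At day 7 Tbx1 was 5.23-fold and Prox1 2.25-fold higher in lymphatic cells, 2 of 9 against 9.23% of all genes. Foxc1 (log2 ratio -1.87) and Gata2 (-1.11) were at least 2-fold lower, 2 of 9 against 13.4%, and the median of the 9 was -0.14 beside 0.00 for all genes. The 33 vascular cells of day 7 limit these values: the Prox1 log2 ratio was 0.65 under stricter cell filters and 0.93 with cluster 7 alone, and turned to -0.62 when each library was clustered alone. In that last setting 41 of 73 cells called vascular were cells that the joint clustering had called lymphatic (21 of cluster 10, 16 of cluster 11 and 4 of cluster 9).

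The lymphatic class was not uniform. Its 4 clusters were cluster 9 with high Lyve1, Reln and Ccl21a (375 cells at day 7, 934 at day 21), cluster 11 with Clca3a1 (489 and 857), cluster 10 with Cldn11 and Gja4 (24 and 75) and the dividing cluster 20 (103 and 45). Cluster 10 had 3 of the 9 lymphatic markers past the naming rule, the fewest that allow the name. The valve-associated factors had their highest day 21 levels in cluster 10. Its day 21 Prox1 level was 3350 CPM, found in 75 of 75 cells, against 1601 in cluster 9 and 1628 in cluster 11. Foxc2 was at 193 in cluster 10, 44.1 in cluster 9 and 70.5 in cluster 11. Gata2 was at 122, 29.3 and 50.4. From cluster 9 to cluster 10 Prox1 was 2.09-fold higher, Foxc1 2.51-fold, Foxc2 4.37-fold and Gata2 4.18-fold, 4 of 9 against 9.44% of all genes, and 0 of 9 were 2-fold lower, against 8.86%. Nr2f2 was lower (0.589 of cluster 9), short of 2-fold, and Sox18 was at 163 against 185. From cluster 11 to cluster 10 Prox1 (2.06-fold), Foxc2 (2.73-fold) and Gata2 (2.43-fold) were higher, 3 of 9 against 11%. In the 24 cluster 10 cells of day 7, too few for a ratio, Prox1 had 1239 UMIs in 24 cells, Foxc2 44 UMIs in 15 cells and Gata2 45 UMIs in 16 cells.

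Between the 2 large lymphatic clusters the differences were smaller. Gata2 was 2.16-fold higher in cluster 11 than in cluster 9 at day 7, with Foxc1 at 1.92-fold and Foxc2 at 1.91-fold. That made 1 of 9 past 2-fold against 5.9% of all genes, and 0 of 9 against 5.25% at day 21. Nr2f2 went the other way, at 452 CPM in cluster 9 and 337 in cluster 11 at day 7, and 433 and 286 at day 21. The dividing cluster 20 had less Prox1 than cluster 9, 760.4 against 1777 at day 7 (2.34-fold lower) and 812 against 1601 at day 21 (1.97-fold lower). Nfatc1 at day 7, and Nr2f2 and Foxc1 at day 21, were also 2-fold lower in cluster 20. With Prox1 at day 7 these were 2 of 9 on each day, against 9.75% of all genes at day 7 and 13.5% at day 21. When each library was clustered alone, 103 of 103 day 7 cells of cluster 20 were called lymphatic, but 7 of 45 at day 21. The day 21 values of cluster 20 are limited by this.

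**Figure D2:**
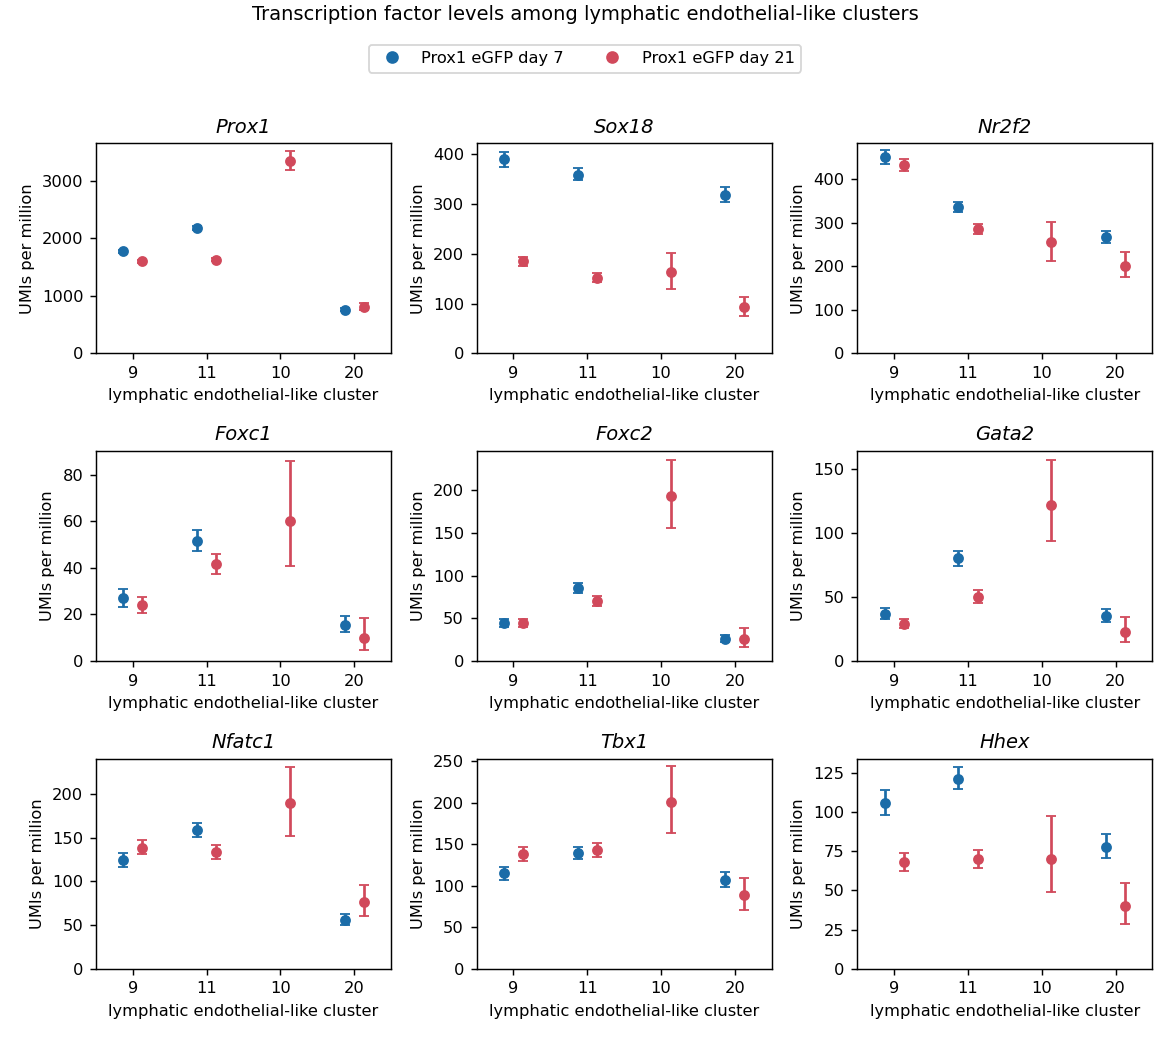
Level of each factor in CPM (vertical axis, 1 panel a factor) in lymphatic clusters 9, 11, 10 and 20 at day 7 and day 21, with 95% Poisson intervals of counting error. Cluster 10, drawn for day 21, has the highest Prox1 (3350), Foxc2 (193) and Gata2 (122), and Sox18 is lower at day 21 than at day 7 in clusters 9, 11 and 20.

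From day 7 to day 21, Sox18 was the factor that differed most in lymphatic endothelial-like cells. Its level of 362 at day 7 and 164 at day 21 is a log2 ratio of -1.14 (-1.20 to -1.08; 2.21-fold lower). It was lower in each cluster large enough to compare, by log2 ratios of -1.08 in cluster 9, -1.24 in cluster 11 and -1.78 in cluster 20. Of all genes 6.21%, 7.16% and 11.2% were at least 2-fold lower in those clusters. The cluster 20 value is the least certain, since 7 of its 45 day 21 cells were called lymphatic with that library clustered alone. Hhex (-0.65) and Gata2 (-0.47) were lower short of 2-fold. Prox1 (-0.12), Nr2f2 (-0.04), Foxc1 (-0.16), Nfatc1 (0.11) and Tbx1 (0.16) differed by less than 0.20 on the log2 scale, and Foxc2 had a ratio of 0.999. So 1 of 9 factors was at least 2-fold lower, against 8.05% of all genes, and 0 of 9 higher, against 3.72%. The median log2 ratio of all genes was itself -0.17, and that of the 9 was -0.12. With TMM scaling, which adds 0.14 to every log2 ratio here, Sox18 was at -1.0, just short of 2-fold, and Prox1 (0.03), Nr2f2 (0.11) and Foxc2 (0.14) turned positive. Foxc2 counts of Prox1 eGFP day 7 were made against a different gene list, which limits its ratios to that library here and below.

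Thinned to equal depth, the share of lymphatic cells with a Sox18 UMI was 48.7% at day 7 and 27.4% at day 21 (94.5% and 69.2% before thinning). Thinned Hhex shares were 19.6% and 11.6%, and thinned Nr2f2 shares 50.1% and 48%. Genes of cell division moved with these values: 10 of 10 fixed genes were at least 2-fold lower at day 21 in the class (median log2 ratio -1.72), with Mki67 at 98.4 and 23 CPM. Their part in the Sox18 difference was not tested.

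In muscle progenitor-like cells Prox1 was lower at day 21. The log2 ratio was -0.69 (-0.71 to -0.66), a ratio of 0.622, where the median of all genes was -0.24. Different clusters held most of the class on the 2 days, cluster 15 at day 7 (2552 of 3659 cells) and cluster 16 at day 21 (2833 of 3497). Within clusters the log2 ratio of Prox1 was -0.54 in cluster 15 (1302 to 893 CPM), -0.57 in cluster 16 (1125 to 756) and -0.81 in the Myog-expressing cluster 17 (921 to 524). The direction was thus the same in each of the 3 clusters, short of 2-fold in all of them.

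Foxc1 was 2.91-fold lower at day 21 in the muscle class (log2 ratio -1.54, -1.81 to -1.28). Within clusters it was at -1.34 in cluster 16, where 6.52% of all genes were 2-fold lower, and short of 2-fold at -0.73 in cluster 15 (8.35%). Sox18 was lower too, but from 30 UMIs to 8. These 2 of 9 factors compare with 11.5% of all genes at least 2-fold lower, and 0 of 9 were higher, against 4.4%. Nr2f2 (-0.30), Nfatc1 (-0.39) and Tbx1 (-0.28) were close to the all-gene median, and the median of the 9 was -0.57. Cell division genes moved the other way from those of the lymphatic class, with 10 of 10 higher at day 21 (median 2.03), and their part in the Prox1 and Foxc1 differences was not tested.

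In vascular endothelial-like cells most of the factors were lower at day 21, with few cells behind the day 7 values. Prox1 had a log2 ratio of -2.30 (-2.55 to -2.06; 4.94-fold lower), Foxc2 -2.09, Tbx1 -2.05, Gata2 -1.40, Nr2f2 -1.35, Foxc1 -1.34 and Sox18 -1.02. These 7 of 9 compare with 11.3% of all genes, and 0 of 9 were higher, against 7.43%. The median was -1.35 for the factors and -0.16 for all genes. Hhex (-0.81) and Nfatc1 (-0.32) were short of 2-fold. The class also differed in makeup: 29 of 33 cells at day 7 belonged to cluster 7, with Ackr1, Selp and Vwf, against 65 of 120 at day 21, and the rest belonged to cluster 22, with Timp4 and Aqp7. Within day 21, cluster 22 had 4 of the 8 factors with enough UMIs at least 2-fold lower than cluster 7, namely Nr2f2 (-1.5), Foxc1 (-2.15), Foxc2 (-3.07, from 13 UMIs to 1) and Nfatc1 (-1.37), against 11.4% of all genes. In Vegfc CRE the same contrast gave -0.44, -0.53, -1.65 and -0.14 for these 4. Over the other settings tried, cluster 7 alone among them, the day 21 to day 7 ratio stayed at or below -2.11 for Prox1 and -1.05 for Nr2f2 and Foxc1. That of Sox18 reached -0.82. After thinning, Gata2 turned to 1.45, on 2 UMIs in the 33 day 7 cells.

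**Figure D3:**
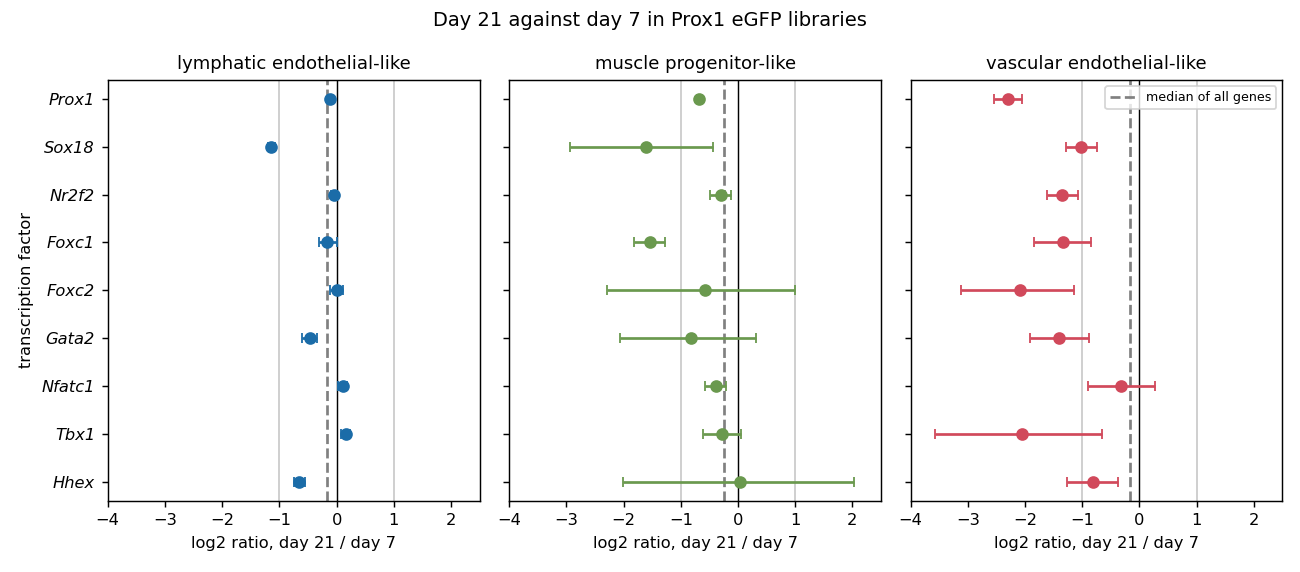
Log2 ratio of day 21 to day 7 (horizontal axis) for each factor in 3 cell classes, with 95% intervals of counting error, the median of all genes as a dashed line and 2-fold as grey lines. Sox18 is the factor past 2-fold in lymphatic cells (-1.14), Foxc1 (-1.54) and Sox18 in muscle progenitors, and 7 of 9 factors in vascular cells.

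The muscle progenitors with Prox1 did not carry the lymphatic set of factors. From lymphatic to muscle progenitor cells at day 7, Prox1 had a log2 ratio of -0.52 and Foxc1 -1.03, followed by Nfatc1 (-2.60), Nr2f2 (-4.27), Tbx1 (-4.38), Gata2 (-6.37), Foxc2 (-7.43), Sox18 (-8.58) and Hhex (-9.13). That was 8 of 9 at least 2-fold lower, against 25.2% of all genes, and 0 higher, against 18.8%. At day 21 Prox1 was at -1.09 and Sox18 at -9.04, with 9 of 9 lower against 25.6% of all genes and 0 higher against 16.7%. Median log2 ratios were -4.38 and -4.81 for the factors beside -0.22 and -0.25 for all genes.

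Single cells gave the same picture. Among lymphatic cells with a Prox1 UMI after thinning, 831 of 907 (91.6%) held a UMI of at least 1 of the other 8 factors at day 7 and 1470 of 1724 (85.3%) at day 21. Among muscle progenitors with Prox1 the shares were 400 of 3142 (12.7%) and 214 of 2577 (8.3%). At least 3 other factors were found in 31% and 21.2% of such lymphatic cells, and in 0 of 3142 and 0 of 2577 muscle progenitors. In muscle progenitors with Prox1 the other factors found most often at day 7 were Foxc1 (3.95%), Nfatc1 (3.79%) and Nr2f2 (3.6%). Sox18 was found in 0.286% and Foxc2 in 0.0318% of them.

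Within lymphatic cells, those with and without a thinned Prox1 UMI were compared for the other factors. At day 7 Sox18 was found in 48.6% of cells with Prox1 and 49.4% of the 81 without, Nr2f2 in 49.9% and 51.9%, and Hhex in 20% and 16%. Nfatc1 was found in 27% and 9.88%, Gata2 in 12.1% and 4.94%, and Foxc2 in 12.1% and 7.41%. At day 21 the Sox18 shares were 27.3% and 29.3%, the Nr2f2 shares 48.7% and 40%, and the Hhex shares 11.8% and 9.33%. The Nfatc1 shares of day 21 were 25.1% and 18.7% of the 150 cells without, and the Gata2 shares 7.71% and 7.33%. Absence of a UMI in a thinned cell does not show absence of the RNA.

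**Figure D4:**
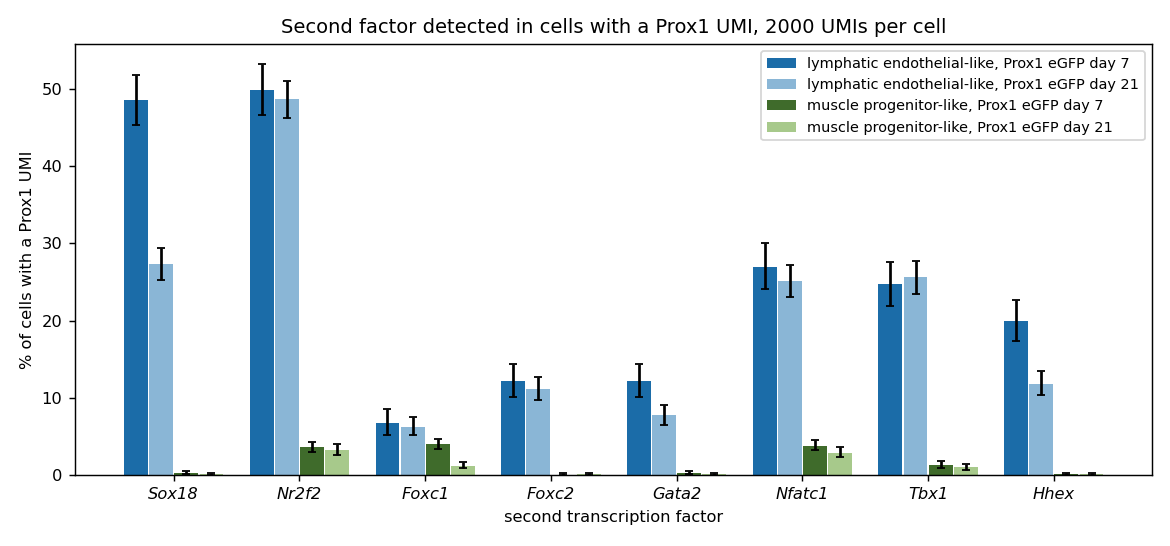
Percent of Prox1-positive cells (vertical axis, cells thinned to 2000 UMIs) that also held a UMI of each other factor, for lymphatic endothelial-like and muscle progenitor-like cells at day 7 and day 21. Lymphatic bars reach 49.9% for Nr2f2 at day 7, and muscle progenitor bars stay at or below 3.95%.

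Vascular cells of the Prox1 eGFP and Vegfc CRE libraries differed most in Prox1. At day 7 a UMI of Prox1 was found in 28 of 33 vascular cells of Prox1 eGFP (84.8%, 68.1 to 94.9) and in 19 of 679 of Vegfc CRE (2.8%), or 45.5% and 0.464% after thinning. The log2 ratio of Vegfc CRE to Prox1 eGFP was -7.98 (-8.62 to -7.40). Sox18 differed by -0.01 (-0.20 to 0.18), whereas Tbx1 (-4.42), Foxc2 (-3.15), Foxc1 (-2.74), Gata2 (-1.59), Nfatc1 (-1.38) and Nr2f2 (-1.31) were lower in Vegfc CRE. That is 7 of 9 at least 2-fold lower with Prox1, against 14.7% of all genes, and 0 higher, against 7.2%, and the median was -1.59 beside -0.21 for all genes. After thinning, Gata2 had 2 UMIs in 33 vascular cells of Prox1 eGFP day 7 and 57 in 646 of Vegfc CRE. Its lower level in Vegfc CRE was therefore not kept at equal depth. Set against the same Vegfc CRE cells, the day 21 vascular cells of Prox1 eGFP had 51.2-fold more Prox1 and 5.19-fold more Tbx1, with Foxc1 (2.63-fold), Nfatc1 (2.1-fold) and Foxc2 (2.08-fold) also higher. That is 5 of 9 against 9.24% of all genes, while Sox18 was 2.01-fold lower, 1 of 9 against 8.99%. These comparisons share cells with each other and with the day 21 comparison above. Line, pool, any sort for Prox1 and library differ together here and cannot be told apart.

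Markers of the other classes were measured in the same vascular cells. At day 7 the Prox1 eGFP vascular cells had Ackr1 at 446, Flt1 at 539.5 and Emcn at 859 CPM. Their Ccl21a was at 9.52, Lyve1 at 6.35 and Pax7 at 1.59, while lymphatic cells of that library had Ccl21a at 8193 and Lyve1 at 1334. The 9 lymphatic markers summed to 824, against 13506 in lymphatic cells of that library, with Pdpn and Reln at 0. Mmrn1 was at 7.93 and Flt4 at 20.6, so most of the sum of 824 came from Fxyd6, Nts and Clca3a1. The 8 muscle progenitor markers summed to 22.2, with 6 at 0. At day 21 all of both lists were above 0 in vascular cells, the lymphatic markers summed to 1542 with Ccl21a at 909.6 and Lyve1 at 138, and the muscle markers to 89. In Vegfc CRE the sums were 324, with Reln at 0, and 24.4, with 3 of 8 at 0. The part of these markers' source cells in the Prox1 levels of 781 at day 7 and 158 at day 21 was not tested. Removing the cells with the highest doublet scores moved the Prox1 log2 ratio of day 21 to day 7 from -2.30 to -3.20, and that of lymphatic to vascular cells at day 21 from 3.35 to 4.27.

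Muscle progenitor-like cells of Vegfc CRE also held Prox1 RNA. A Prox1 UMI was found in 17 of 36 cells (47.2%, or 20.6% after thinning), at 135 CPM (92.7 to 191; 32 UMIs). That is a log2 ratio of -3.17 to the muscle progenitors of Prox1 eGFP day 7. Pax7 was at 182 and Myf5 at 301 CPM in these 36 cells, against 642 and 539 in the Prox1 eGFP cells. Of the 9 lymphatic markers 6 were at 0, Ccl21a, Lyve1 and Flt4 among them. The 9 summed to 373 CPM, against 621 in the muscle progenitors of Prox1 eGFP day 7. Reln was at 4.23, so most of the sum of 373 came from Pdpn and Fxyd6. The part of lymphatic cells in the Prox1 level was not tested. The other factors had few UMIs there: 10 of Nr2f2, 5 of Gata2 in 2 cells, 3 of Nfatc1, 2 each of Foxc1 and Hhex, and 0 of Sox18, Foxc2 and Tbx1.

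**Figure D5:**
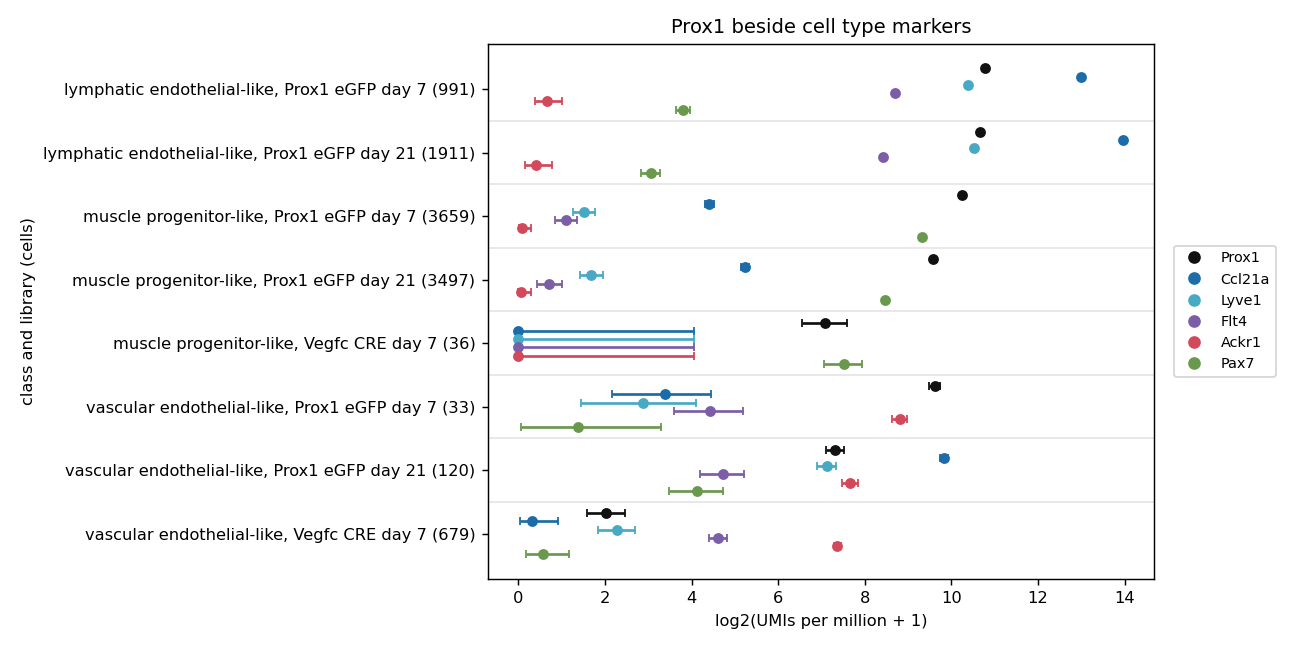
Levels in CPM (log axis) of Prox1 beside the lymphatic genes Ccl21a, Lyve1 and Flt4, the venous gene Ackr1 and the muscle progenitor gene Pax7 in 8 combinations of class and library. The vascular cells of Prox1 eGFP day 7 have Prox1 at 781 with Ccl21a at 9.52, and those of day 21 have Prox1 at 158 with Ccl21a at 909.6. Other lymphatic markers, among them Fxyd6, Nts and Clca3a1, are not drawn.

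Outside these 3 classes Prox1 in the day 21 Prox1 eGFP library ran from 32.6 to 209.6 CPM, below lymphatic cells and muscle progenitors. That range covers classes of at least 30 cells, and the fewer T/NK-like cells of that library are described at the end. Monocyte-like cells had 209.6 (11 of 54 cells) and macrophage-like cells 78.2, against 0 and 0.192 in Vegfc CRE, with lymphatic markers summing to 1391 and 875 against 7.42 and 82.6. Fibroblast-like cells had 36.1 CPM (55 of 319 cells) against 0.822 in Vegfc CRE, tenocyte-like cells 49 against 0.431, and mural-like cells 32.6 against 0.295. The summed lymphatic markers were also higher there than in Vegfc CRE, at 746 against 309.9 in fibroblast-like cells. They were at 1260 against 612 in tenocyte-like cells and 242 against 36.9 in mural-like cells. The sum of 612 stood beside Prox1 at 0.431, and which markers made up these sums is not given here. The part of lymphatic cells in these Prox1 values was not tested. Other factors had places of their own. In Vegfc CRE, Tbx1 was highest in keratinocyte-like cells (54.8 CPM, 35 of 110 cells), Foxc1 there was at 25.9, overlapping vascular cells, and Nr2f2 in Schwann-like cells was at 216 (35 of 59 cells). Nfatc1 was highest in T/NK-like cells of Vegfc CRE (93), followed by macrophage-like (57) and neutrophil-like cells (51.8), whose intervals overlapped. Hhex was at 31.5 in macrophage-like and 30.1 in monocyte-like cells of that library.

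The day 0 library had too few endothelial cells for levels. Its 3 lymphatic endothelial-like cells held 15 Prox1 UMIs in 2 cells, 5 of Sox18 in 2 cells, 3 of Nr2f2 in 2 cells and 1 of Tbx1. Its 7 vascular cells held 0 Prox1 UMIs, 13 of Sox18 in 4 cells, 4 of Nr2f2 in 3 cells and 1 of Foxc1. The 8 lymphatic endothelial-like cells of Vegfc CRE held 26 Prox1 UMIs, 23 of Sox18, 19 of Nr2f2 and 20 of Tbx1, each in 7 cells. No comparison of lymphatic cells with day 0 or Vegfc CRE was possible at these numbers.

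Other genes of the same families and programmes were read from fixed lists. In lymphatic cells from day 7 to day 21, 2 of 12 family relatives were at least 2-fold lower, both on few UMIs (Gata3 from 19 to 1, Tbx3 from 16 to 5; list median -0.23). These small counts are read against the 8.05% of all genes lower and 3.72% higher in that comparison, and those of muscle progenitors against 11.5% lower. Among 17 other endothelial transcription factors 1 was higher, Klf2, a flow-responsive factor (447 to 957 CPM; log2 ratio 1.10; list median -0.03). Among 16 lymphatic programme and valve genes 1 was higher, Cldn11 (25.7 to 56.3; list median -0.27). Pan-endothelial genes had 0 of 8 past 2-fold (median -0.36), and muscle transcription factors 1 of 11 lower (median -0.13). In muscle progenitors, 1 of 12 muscle transcription factors was 2-fold lower, Mef2c (-1.01; list median -0.30), while Pax3 was at -0.69, near Prox1. Family relatives there had 2 of 9 lower, Nfatc2 (38.1 to 7.59) and Prox2 (-1.13), with a list median of -0.69. Relatives also set the endothelial classes apart: Sox17, an arterial SOX factor, had a log2 ratio of lymphatic to vascular cells of -6.14 at day 7 and -8.21 at day 21, where Sox18 had -0.14 and -0.26. Maf, a factor with a known place in lymphatic endothelium, had 5.68 and 4.72.

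Across the 29 combinations of class and library, each factor's pattern was set against 13389 genes by Pearson's r of log2(CPM + 1). The groups share libraries and depth, so these r are descriptions. Nearest to Prox1 were Prox1os (0.94), its antisense partner, Slc10a6 (0.86) and Chrnb1 (0.86). Nearest to Sox18 were Tie1 (0.97), Emcn (0.96) and Nova2 (0.95), to Nr2f2 Prss23 (0.93), Cd151 (0.92) and Ehd2 (0.92), and to Hhex Abi3 (0.86), Lyl1 (0.84) and Lyn (0.84). Foxc1 had Slco2a1 (0.93), Kank1 (0.91) and Ptprk (0.91), and Foxc2 had Spns2 (0.93), Bik (0.89) and Apold1 (0.89). Gata2 had Tal1 (0.94), Unc13b (0.94) and Myct1 (0.93), Nfatc1 had Slc35d2 (0.82) and Map4k2 (0.81), and Tbx1 had Clca3a1 (0.80), Ptpn3 (0.80) and Il20rb (0.79). Among the 9, Sox18 was most like Foxc2 (0.86) and Gata2 (0.84). Prox1 was most like Tbx1 (0.71), and its r was 0.51 with Sox18 and 0.11 with Hhex.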

How the data were processed

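The authors deposited raw UMI counts per gene and barcode for 4 pooled 10x libraries. Cell Ranger 5.0.1 and the mm10 build are named in the submitters' processing notes, and filters before deposit are not given in the sources used here. The day 7 Prox1 eGFP file lists 27998 genes and the others 32285. The 27040 shared identifiers, with 99% to 99.8% of UMIs, were used. Library totals ran from 6761289 to 92568978 UMIs. The members and gene lists were chosen with earlier results of these data known.

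Barcodes were kept from 500 genes and 1000 UMIs upward, with up to 15% mitochondrial UMIs. Scrublet (through scanpy 1.11.5) called 0, 1, 88 and 91 doublets at day 0, day 7, day 21 and in Vegfc CRE, which were removed. The caller had not worked on day 7, where it marked 1 barcode. Leiden clustering (leidenalg 0.10.2) used 2000 variable genes without the members, 30 components, 15 neighbours and resolution 1. A cluster was named when at least 3 fixed markers passed 2-fold and 20% of its cells, and 0 of 27 clusters stayed unnamed. The names are rebuilt ones, since the authors' annotation was not used here.

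Counts were summed per class and library and divided by the class total. Classes and clusters needed 30 cells, and a ratio needed 10 UMIs over both sides. Intervals (95%) were exact Poisson for levels, exact conditional binomial for ratios and Clopper-Pearson for shares, and a count of 0 was read as up to 3. Thinning to 2000 UMIs left out 1035 shallower cells. With 1 library per group a size rule of 2-fold stood in place of a test, read against the share of all genes past it. All 9 members are named wherever they held UMIs. At most 4 genes of a list were named in a comparison, those farthest from 0, and the 3 genes of highest r for likeness. Some genes that this rule names are not reported here. The ratio script was tested on simulated data. TMM factors came from edgeR 4.0.16. Promoter windows are from RefSeq, and gene positions from GENCODE M21 on the same build. Windows were read for 6 of the 9 (not Sox18, Foxc2 or Nfatc1), which does not show that RefSeq lacks a start for the others.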

Additional observations from a re-analysis of the deposited data

Results flagged for a closer look

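A pair of factors differed in direction between classes from day 7 to day 21. Nfatc1 had a log2 ratio of 0.11 in lymphatic endothelial-like cells and -0.39 in muscle progenitor-like cells. Tbx1 had 0.16 in lymphatic endothelial-like cells and -2.05 in vascular endothelial-like cells, the latter from 15 UMIs to 7. Each was named because its counting intervals lay on opposite sides of 0 in the 2 classes. Within clusters Nfatc1 was at 0.16, -0.24 and 0.45 in lymphatic clusters 9, 11 and 20, and at 0.01 and 0.21 in muscle clusters 15 and 16, so the opposite directions of the classes were not seen in the clusters that held most of them. Tbx1 was at 0.26, 0.04 and -0.28 in lymphatic clusters 9, 11 and 20. With 1 library a day, neither difference was tested.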

How the results depend on the processing

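No paired analysis was possible because each group is 1 library without replicates, and for the same reason no replicate could be left out. The single-cluster settings were chosen after seeing the data. For the log2 ratio of Prox1 from day 7 to day 21 in lymphatic cells (-0.12), TMM scaling gave 0.03, thinning -0.22, clustering each library alone -0.00, leaving out the dividing cluster -0.30, cluster 9 alone -0.15 and cluster 11 alone -0.42. For Prox1 in muscle progenitors (-0.69) the values were -0.47 with TMM, -0.65 thinned, -0.77 with each library alone, -0.54 in cluster 15 and -0.57 in cluster 16. The count of factors at least 2-fold lower was 0 with TMM in lymphatic cells (1 as reported), and 1 in cluster 15 and 1 in cluster 16 in muscle progenitors (2 as reported). The count higher in muscle progenitors was 1 with each library alone and 1 in cluster 15 (0 as reported). The count higher in lymphatic than vascular cells was 3 at day 21 with vascular cluster 7 alone (5 as reported). At day 7 it was 1 under stricter filters, 0 with each library alone and 1 with cluster 7 alone (2 as reported). Of the ratios of at least 2-fold, those that changed sign were Gata2 after thinning, 1.45 from day 7 to day 21 in vascular cells and 1.04 from vascular to lymphatic cells at day 7, where 33 thinned vascular cells held 2 Gata2 UMIs, and Prox1 from vascular to lymphatic cells at day 7 with each library alone, -0.62. Ratios to Vegfc CRE were not rerun under these settings. Smaller ratios changed sign too. With each library alone, Gata2 in muscle progenitors from day 7 to day 21 (-0.83) was 1.78, and from vascular to lymphatic cells at day 7 Nfatc1 (0.90) was -0.28 and Foxc2 (0.28) was -0.46. In cluster 15 the muscle progenitor value was 1.62 for Gata2 and 0.01 for Nfatc1 (-0.39), and in cluster 16 it was 0.21 for Nfatc1 and 0.07 for Tbx1 (-0.28). Nfatc1 in lymphatic cells (0.11) was -0.17 after thinning, -0.08 without the dividing cluster and -0.24 in cluster 11. Hhex from vascular to lymphatic cells at day 7 (-0.32) was 0.10 after thinning, Gata2 at day 21 (-0.18) was 0.18 with vascular cluster 7 alone, Nr2f2 in lymphatic cells (-0.04) was 0.11 with TMM, and Foxc2 in muscle progenitors (-0.57) was 0.17 with called doublets kept. The count lower in vascular cells at day 21 ran from 5 to 8 over 11 alternatives. Sox18 in lymphatic cells ran from -1.24 to -1.0 over 13. Among the alternatives, leaving the members in the variable genes could change nothing, because 0 of the 9 were variable. A minimum of 1 UMI could change a count of factors but not a log2 ratio. The few UMIs of most factors in muscle progenitors, and the 33 vascular cells of day 7, limit what can be read there.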

Other observations

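Some small groups of cells held 1 factor at a high level. The 22 mast-like cells of all libraries held 69 Gata2 UMIs in 19 cells, a level of 719 CPM (559 to 909.9). Of these cells 17 came from Vegfc CRE. Sox18, Nr2f2, Foxc1, Foxc2 and Tbx1 had 0 UMIs there. At a clustering resolution of 2, 73 osteoclast-like cells, 72 of them from Vegfc CRE, held 470 Nfatc1 UMIs in 53 cells, 333 CPM (304 to 364). Gata2 is known in mast cells, and Nfatc1 is the main factor of osteoclast formation.

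T/NK-like cells of the day 0 Prox1 eGFP library held Prox1 at 26.4 CPM (21.5 to 32), as 103 UMIs in 53 of 400 cells, with up to 11 in a cell. The same library had 2.88 in B/plasma-like cells (2 of 111), 5.77 in dendritic-like cells (4 of 55) and 0 UMIs in 74 monocyte-like cells. In these T/NK-like cells the 9 lymphatic markers summed to 147 CPM, with Pdpn alone at 0, and 6 of 8 muscle progenitor markers were at 0. In the day 21 library 11 of 13 T/NK-like cells held 63 Prox1 UMIs, with 5 of 9 lymphatic markers at 0 and none of the 8 muscle progenitor markers at 0. The lymphatic markers summed to 469 CPM in these 13 cells. Their muscle progenitor markers summed to 1173, against 1898 in muscle progenitor-like cells of that library. The part of these markers in the Prox1 values was not tested.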
